A study of Mus musculus with 145 samples.

Results

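Transposon insertions in Kmt2c were followed along the gene in mouse mammary tumours. The gene was taken as the region with identifier 231051 in the authors' deposited table of regions, chr5:25271794-25500783 (mm10, identical in coordinates to GRCm38), and all sites of the deposited site table inside it were used. It held 161 of 198107 sites, of which 160 had reads in at least 1 library. A tumour was called hit when it had a site of at least 10 reads in the region, each position and strand being kept only in the tumour in which it was read most, which left 121 kept sites. Kmt2c was chosen by its share of hit tumours and the read rank of its sites in the 2 groups, so both are given as descriptions, without a test.

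The tumours numbered 51 from 25 mice treated with BYL719 (alpelisib, an inhibitor of PI3K alpha), called resistant, and 94 from 23 untreated mice. Mice of both groups carried WAP-Cre, LSL-PB, LSL-PIK3CA(H1047R) and ATP1: a Cre gene driven by the promoter of a milk protein gene, the piggyBac transposase and activated PI3K alpha, both switched on by Cre, and the transposon donor. Recombination in this model is started by mating and takes place in the mammary cells that switch this promoter on. Resistant tumours had been treated from 250 mm3 with 30 mg/kg daily and had grown over at least 3 consecutive measurements within 3 weeks. DNA of whole tumours was examined, with no measurement of RNA or protein. Ages were not given in the labels.

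KMT2C, also called MLL3, is a histone methyltransferase that places a single methyl group on lysine 4 of histone H3, mainly at enhancers. It works in a complex with the demethylase KDM6A and the subunits NCOA6, PAXIP1 and PAGR1, and the paralogue KMT2D forms a like complex. KMT2C is among the chromatin genes that are recurrently mutated in human breast cancer. The piggyBac transposon inserts at the bases TTAA and can truncate a transcript or, in one orientation, drive transcription from its own promoter.

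Kmt2c lies on the minus strand, with its RefSeq gene at 25271795 to 25498855 (227061 bp), and the authors' region reaches 1928 bp past the gene start. An insertion listed on the minus strand is called "with the gene" below, and the direction of the promoter in the transposon relative to this strand is not given in the sources used here. Without a gene model, no site was placed in an exon or intron. The deposited contexts show where the transposon entered. Of the 121 kept Kmt2c sites, 117 (96.7%) lay at TTAA, against 97333 of 101078 kept sites over the genome (96.3%). The target bases and the 4 bases that follow them on the strand of the insertion are printed for the most-read site of the 5 tumours of each group in which that site took the largest percent of the library's reads, and for 1 site that was not at TTAA. Capitals mark the TTAA target, and the coordinates are those of its 4 bases.
resistant tumour 48, chr5:25336064-25336067, minus strand: TTAActga
resistant tumour 5, chr5:25459921-25459924, minus strand: TTAAaatg
resistant tumour 8, chr5:25337801-25337804, minus strand: TTAAtacc
resistant tumour 16, chr5:25330073-25330076, minus strand: TTAAgaaa
resistant tumour 14, chr5:25375546-25375549, plus strand: TTAAtcac
resistant tumour 26, chr5:25391391-25391394, plus strand, not at TTAA: ataaatca
untreated tumour 15, chr5:25365459-25365462, minus strand: TTAAaatt
untreated tumour 94, chr5:25490284-25490287, minus strand: TTAAatta
untreated tumour 36, chr5:25444287-25444290, plus strand: TTAAagtg
untreated tumour 8, chr5:25272286-25272289, plus strand: TTAAagaa
untreated tumour 57, chr5:25356957-25356960, minus strand: TTAAaata

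Among the kept sites, a pair of TTAA targets in the gene was used by different tumours, in each case in opposite orientations. The opposite orientations carry no information, because each position and strand was kept only in the tumour in which it was read most. This rule removed sharing in the same orientation. Position 25493300 on the minus strand, at a printed target, had 32 reads in resistant tumour 13 and 17 in resistant tumour 9. The targets are printed on the plus strand with 4 bases on either side, and capitals mark the target.
chr5:25472290-25472293, resistant tumours 10 and 26: tccaTTAAagaa
chr5:25493301-25493304, resistant tumour 13 and untreated tumour 81: gtttTTAAagga

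The RefSeq promoter of Kmt2c (GRCm38.p6, chr5:25498734-25499033, minus strand) is shown because it holds no piggyBac target. The 250 bases before the transcription start are in lower case and the 50 after it in capitals.
Kmt2c promoter: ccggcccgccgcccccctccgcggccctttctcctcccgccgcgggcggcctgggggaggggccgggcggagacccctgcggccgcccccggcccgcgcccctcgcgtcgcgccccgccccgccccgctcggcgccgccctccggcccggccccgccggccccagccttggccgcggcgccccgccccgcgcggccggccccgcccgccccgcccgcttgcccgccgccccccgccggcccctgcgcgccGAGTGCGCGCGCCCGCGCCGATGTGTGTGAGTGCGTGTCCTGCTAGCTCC
The motif TTAA, which reads the same on both strands, occurred 0 times in it, against at least once in 17210 of 32851 RefSeq promoter windows of the same length (52.4%). G and C made up 88% of its bases, and the median over all promoters was 52.7%. The site table listed 0 sites in this window. The absence of TTAA says nothing about the rest of the region.

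Libraries held 51 to 1604365 reads in resistant tumours (median 136932) and 2950 to 938987 in untreated tumours (median 48339), and kept a median of 473 and 431 sites. The libraries of untreated tumours 77 and 79, labelled as different mice, shared 586 of the 588 sites that had at least 10 reads in library 79 (99.7%). This was the highest of 8128 pairs of libraries with at least 100 such sites, whose median was 0.66%. They were counted as separate tumours because the labels name different mice, and whether they hold DNA of a single tumour was not tested. Neither was hit in Kmt2c, and without tumour 79 the untreated group had 24 hit tumours of 93 (25.8%). Untreated libraries 58 and 88 have the same mouse, gland and side in their titles, the title of 88 ending in R2. They kept 1 and 0 sites, neither was hit, and without library 88 the untreated share was likewise 25.8% of 93. The pair with the next highest percent of shared sites was resistant tumours 26 and 35, also labelled as different mice, with 123 of the 842 sites of tumour 35 (14.6%). Both were hit in Kmt2c, and positions 25378224, 25391395 and 25432372 had at least 10 reads in both. At 25378224 tumour 26 had 3319 reads and tumour 35 had 1939. Without both, 44.9% of 49 resistant tumours were hit.

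Kmt2c was hit in 24 of 51 resistant tumours (47.1%, Clopper-Pearson 95% limits 32.9 and 61.5) and in 24 of 94 untreated tumours (25.5%, limits 17.1 and 35.6). Over all 2558 genes hit in at least 5 tumours, 0 (0%) passed an adjusted p of 0.05 in a Fisher exact test of the same contrast, while 77 had p under 0.05 before adjustment, 60 of them higher and 17 lower in resistant tumours. These counts are background and are not read as a test of Kmt2c, which was chosen on this contrast. Hit tumours came from 15 of 25 resistant mice and 17 of 23 untreated mice, so by mouse the resistant share was the lower one, with fewer tumours per mouse in that group. Mice with at least 2 tumours numbered 17 among resistant and 22 among untreated mice, and at least 2 tumours were hit in 6 and in 5 of them. In resistant mouse 5 all 4 tumours were hit (tumours 11, 12, 13 and 38), and in resistant mouse 4 all 3 were (tumours 8, 9 and 10). The most in an untreated mouse was 3, in mice 3 and 6. Tumours of one mouse are not independent, so the intervals, which cover counting of tumours, are too narrow.

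The 24 hit tumours of each group held 86 sites in resistant tumours and 35 in untreated tumours. A hit resistant tumour had a median of 2 sites and a hit untreated tumour a median of 1. Single sites were found in 7 resistant and 17 untreated tumours, and at least 2 sites in 17 and 7. At least 5 sites were found in 7 resistant tumours and in 0 untreated tumours. Resistant tumours 10, 11 and 48 had 11 sites each, tumours 8, 26 and 32 had 6 each and tumour 7 had 5, whereas the highest number in an untreated tumour was 4. The groups overlapped at 1 to 4 sites. Some of these sites lay next to each other: in tumour 48 the site at 25286530 had 10796 reads, and those 1 bp to either side had 47 and 31. Merging sites of a tumour within 10 bp left 84 sites in resistant and 35 in untreated tumours.

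**Figure D1:**
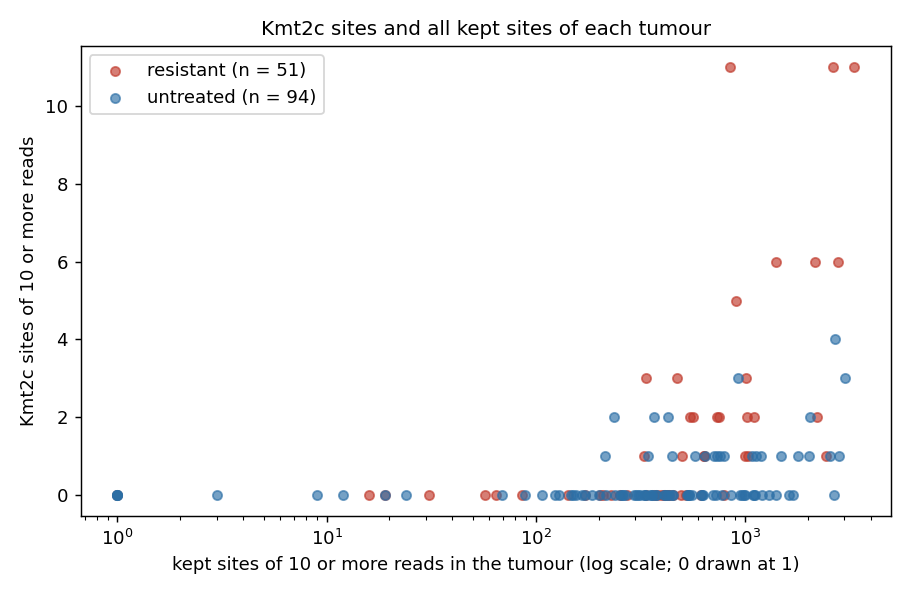
Number of Kmt2c sites of at least 10 reads (vertical axis) against all kept sites of the same tumour (horizontal axis, log scale, 0 drawn at 1), 1 point per tumour, for 51 resistant and 94 untreated tumours. The 7 points at 5 or more Kmt2c sites are all resistant tumours, and all hit tumours had at least 215 kept sites.

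Libraries in which more sites were found were also those in which Kmt2c was more often hit. Hit resistant tumours kept a median of 955.5 sites (329 to 3321), against 275 (0 to 797) in resistant tumours not hit. Hit untreated tumours kept a median of 863 (215 to 3017), against 356.5 (0 to 2660) in untreated tumours not hit. The median depth of hit libraries was 136938.5 reads for resistant and 116213.5 for untreated tumours, and that of libraries not hit was 126828 and 30668.5. The part of library depth in the difference between the groups was not tested. Relative to all kept sites, Kmt2c sites made up 23.1 per 10000 in resistant tumours (86 of 37285) and 5.49 per 10000 in untreated tumours (35 of 63793). Sites of one tumour are not independent, and 33 of the 86 came from tumours 10, 11 and 48, so no counting interval is given. Leaving out each tumour in turn gave 20.6 to 24.4 for resistant and 5.07 to 5.73 for untreated tumours. Without these 3 tumours, left out after their values were seen, the resistant group had 53 of 30473 sites, or 17.4 per 10000, and 21 of 48 tumours hit (43.8%). Within single hit tumours Kmt2c took 0.407 to 12.96 sites per 1000 kept sites (median 2.73) in resistant cases and 0.353 to 8.40 (median 1.33) in untreated cases, so the tumours overlapped over most of their range.

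The sample titles have several written forms, none of which holds both groups, so that form and treatment cannot be told apart. Among resistant tumours 21 of 35 of the form Tgtumor (60%) and 3 of 16 of the form Mouse (18.8%) were hit. Among untreated tumours 19 of 61 of the form TgTum (31.1%) and 5 of 33 of the form tgTum (15.2%) were hit. Per 10000 kept sites, Kmt2c had 21.6 sites in Tgtumor and 33.5 in Mouse tumours, and 5.12 in TgTum and 7.67 in tgTum tumours. Of the 15 sites of the Mouse form 11 lay in tumour 48, and without it, a choice made after its values were seen, that form had 4 of 3628 sites, or 11.03 per 10000, below the Tgtumor form. The share of hit tumours thus differed between the forms of a group. Without tumour 48 the Mouse form had 4 sites in 2 hit tumours of 15, and the tgTum form 7 sites in 5 of 33. Counts this small do not set an order of density between these forms. The part of title form in the difference between the groups was not tested. The sequencing pool of each library, of 4 pools in all, was not given in the labels.

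The most-read Kmt2c site of a tumour, its lead site, had 12 to 47690 reads in hit resistant tumours (median 226.5) and 10 to 6102 reads in hit untreated tumours (median 65.5). As a percent of the library this was 0.00647 to 6.98% (median 0.118%) in resistant tumours and 0.00788 to 2.67% (median 0.0856%) in untreated tumours. The rank of the lead site among the kept sites of its tumour, counted from the most read, ran between 2 and 968 with a median of 53 in resistant tumours, and between 3 and 1539 with a median of 361.5 in untreated tumours. In no tumour was the most-read site of all a Kmt2c site. The lead site was among the 10 most-read sites in 5 resistant and 2 untreated tumours, and among the 100 most-read in 14 and 6. The groups overlapped over nearly the whole range of ranks.

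**Figure D2:**
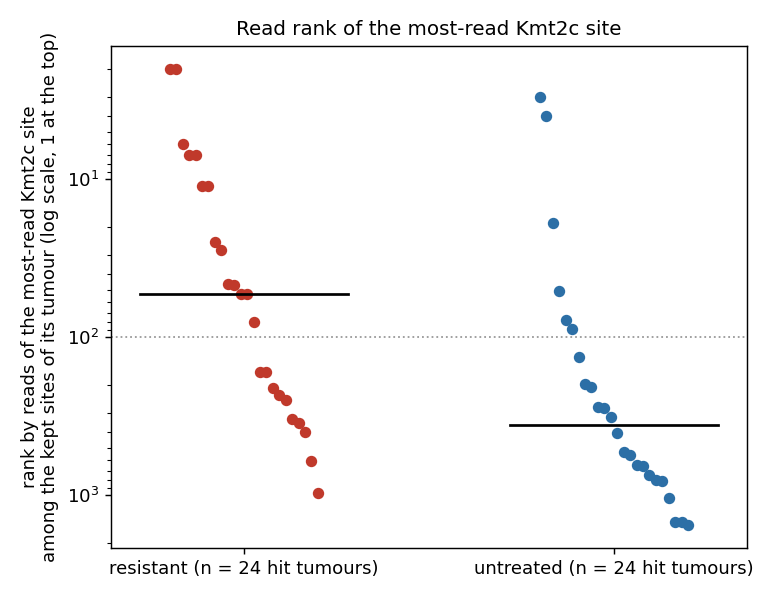
Rank by reads of the most-read Kmt2c site among all kept sites of its tumour (log scale, rank 1 at the top), 1 point per hit tumour, 24 resistant and 24 untreated. Lines mark the medians, 53 and 361.5, and the dotted line rank 100, above which 14 resistant and 6 untreated tumours lie.

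The highest read shares were reached by few tumours. In resistant tumour 48 the lead site took 47690 reads, 6.98% of the library and rank 2 of 849 kept sites, and a further Kmt2c site, at 25286530, took 1.58% and rank 3. Resistant tumour 5 gave its lead site 2032 reads, 1.87% and rank 2 of 1102. Resistant tumours 8 and 16 reached 1.66% and 1.36%, at ranks 11 and 6, and resistant tumour 14 reached 0.956% at rank 7. In untreated tumour 15 the lead site took 6102 reads, 2.67% and rank 4 of 737, and in untreated tumour 94 it took 561 reads, 2.42% and rank 3 of 369. The next untreated tumours were 36, 8 and 57, at 0.409%, 0.396% and 0.291%. Lead sites of at least 1% of the reads were thus found in 4 resistant and 2 untreated tumours. The lead position of untreated tumour 15 had reads in 25 libraries, the highest number at a kept Kmt2c site, and in 15 of the 121 kept sites less than 99% of the reads came from the tumour to which the site was given.

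The count of hit tumours depended on the reads that were asked for. At 1 read or more 25 resistant (49.02%) and 31 untreated tumours (32.98%) were hit, and at 50 reads 16 (31.4%) and 15 (15.96%). At 100 reads 15 resistant (29.4%) and 10 untreated tumours (10.6%) were hit, at 500 reads 8 (15.7%) and 2 (2.13%), and at 1000 reads 7 (13.7%) and 1 (1.06%). The resistant share was the higher one at each of these minimums, and reads were not scaled for the deeper resistant libraries.

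**Figure D3:**
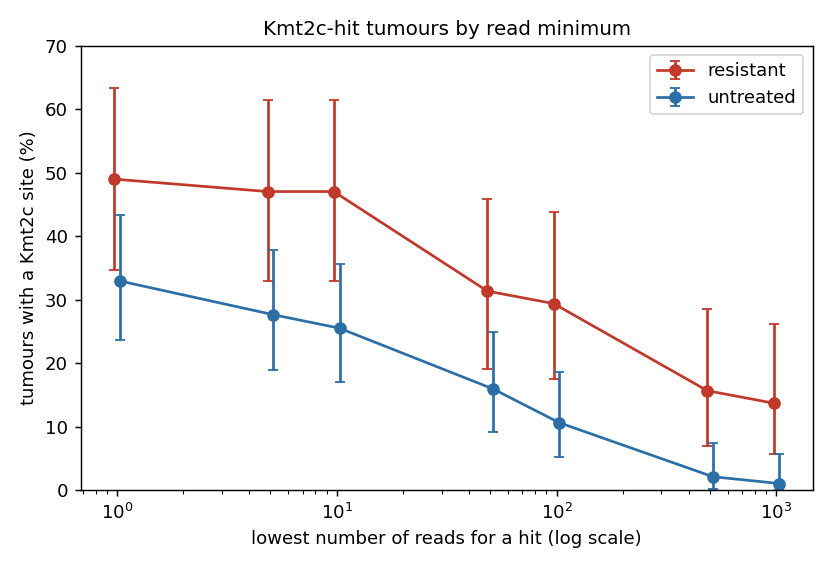
Percent of resistant and untreated tumours hit in Kmt2c (vertical axis, with 95% Clopper-Pearson intervals) against the lowest number of reads that counts as a hit (horizontal axis, log scale). The resistant share runs between 49.02% at 1 read and 13.7% at 1000 reads, the untreated share between 32.98% and 1.06%.

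Insertions were spread over the whole gene in both groups. With the region cut into 10 equal stretches from the gene start, the 86 resistant sites numbered 10, 7, 9, 10, 8, 12, 6, 11, 9 and 4, and the 35 untreated sites 7, 5, 6, 4, 1, 3, 2, 2, 3 and 2. The median site lay 48.98% along the region in resistant and 25.98% along it in untreated tumours, a figure to which tumours with many sites contribute most. With 1 lead site per tumour the mean position was 41.8 ± 27.4% in resistant and 42.8 ± 32.98% in untreated tumours (SD, n = 24 each), a difference of −1.001 percentage points. It did not pass the test (permutation test, 2-sided, 100000 resamples, p = 0.908, adjusted p = 0.991 over 476 genes, of which 0, or 0%, passed and 21 had an unadjusted p under 0.05). The direction of this difference was not stable: it was 12.2 points with the 100 most-read sites per tumour, 8.71 points with 1 tumour per mouse, and above 0 in 8 alternatives in all. The 1 tumour per mouse was the hit tumour with most Kmt2c reads. The lead sites farthest apart were both in untreated tumours: that of tumour 81 lay 2.29 kb and that of tumour 8 lay 227 kb from the gene start.

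**Figure D4:**
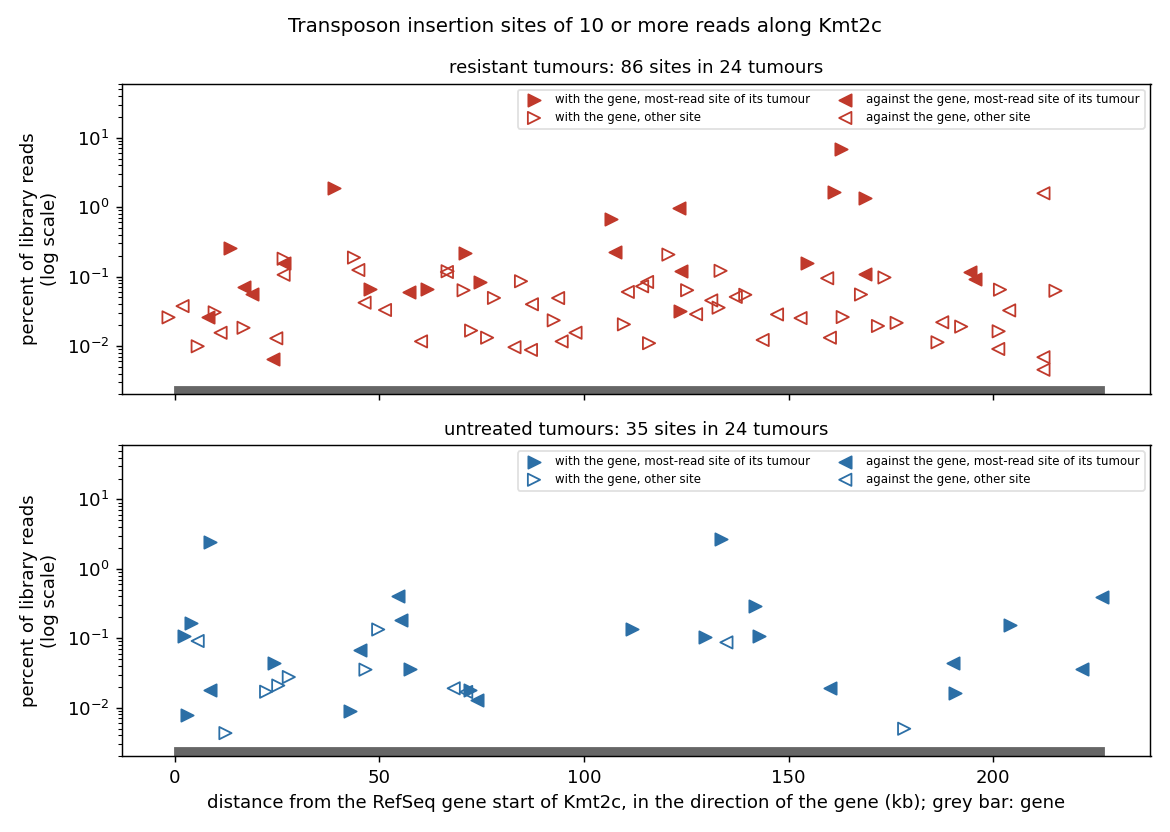
Kept Kmt2c sites by distance from the RefSeq gene start (kb, in the direction of the gene) and percent of library reads (log scale), 86 sites of resistant tumours above and 35 of untreated tumours below. Triangles pointing right are insertions with the gene, and filled triangles are the most-read site of each tumour. Sites of both groups and both orientations lie along the whole gene.

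The density of sites fell off outside the gene. The stretch of equal length (229 kb) before the gene start held 7 sites in 5 resistant tumours and 4 sites in 3 untreated tumours, against 86 and 35 inside. The stretch after the gene end, with part of Prkag2, which encodes a regulatory subunit of AMP-activated kinase, and with Galnt11, a glycosyltransferase gene, held 0 sites in resistant tumours and 6 sites in 6 untreated tumours. By region, Prkag2 was hit in 1 resistant and 4 untreated tumours, and Galnt11 in 0 and 4.

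Different tumours also carried insertions close to one another. In 8 cases, the shared targets included, kept sites of a pair of tumours lay within 100 bp. The number expected from sites spread evenly over the region was not computed, so this count is not read as clustering. At the target 26.6 kb from the gene start that is printed above, resistant tumour 26 had 2893 reads with the gene (rank 35) and resistant tumour 10 had 164 reads against it (rank 78). At the target 5.55 kb from the start, resistant tumour 13 had 32 reads with the gene (rank 880) and untreated tumour 81 had 16 reads against it (rank 322). The lead site of untreated tumour 15 at 25365458 lay 10 bp from a site of 187 reads in resistant tumour 10 in the same orientation. The lead sites of resistant tumours 16 (842 reads) and 38 (336 reads) lay 42 bp apart in opposite orientations.

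With all hit tumours counted, no preference for an orientation passed a test. Of all kept sites, 42 lay with and 44 against the gene in resistant tumours, and 22 with and 13 against it in untreated tumours. Lead sites lay with the gene in 12 of 24 resistant tumours (50%, 95% interval 29.1 to 70.9, exact binomial p = 1) and in 15 of 24 untreated tumours (62.5%, 40.6 to 81.2, exact binomial p = 0.307). Over all genes tested the share with the gene was 48.66% in resistant and 48.98% in untreated tumours. Of 581 genes tested in resistant tumours 0 (0%) had an adjusted p under 0.05 and 17 did so unadjusted, and of 1117 genes in untreated tumours 0 (0%) and 27 did. The difference between the groups for Kmt2c, −12.5 percentage points, did not pass either (Fisher exact test, 2-sided, p = 0.561, adjusted p = 1 over 476 genes, of which 0, or 0%, passed and 13 had an unadjusted p under 0.05). Sites in both orientations were found in 14 resistant and 4 untreated tumours. In each group the lead sites with the 2 highest read shares lay with the gene, a cut made after the values were seen. The next in read share went both ways. Those of resistant tumours 8 and 16 lay with the gene and that of 14 against it. Those of untreated tumours 36 and 8 lay against the gene and that of 57 with it. With 1 tumour per mouse, lead sites lay with the gene in 10 of 15 resistant mice (66.7%) and 13 of 17 untreated mice (76.5%; Fisher exact p = 0.699 between the groups, for Kmt2c alone). The tumour taken was the hit tumour with most Kmt2c reads in its mouse, and read rank entered the choice of the gene. Both shares were above those of all hit tumours, and a preference within a group was not tested with 1 tumour per mouse.

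The gland of each tumour, from its title, was not used to choose Kmt2c. Among resistant tumours 18 of 38 in anterior glands (numbers 1 to 3; 47.4%, 30.98 to 64.2) and 6 of 13 in posterior glands (4 and 5; 46.2%, 19.2 to 74.9) were hit (Fisher exact p = 1, adjusted p = 1 over 763 genes, of which 0, or 0%, passed and 14 had an unadjusted p under 0.05). Among untreated tumours 13 of 54 anterior (24.1%, 13.5 to 37.6) and 11 of 40 posterior tumours (27.5%, 14.6 to 43.9) were hit (Fisher exact p = 0.812, adjusted p = 1 over 1470 genes, of which 0, or 0%, passed and 36 did so unadjusted). The anterior share exceeded the posterior one by 1.21 percentage points among resistant tumours, and the same difference was −3.43 points among untreated tumours, both far inside the counting intervals. The difference between these differences was 4.64 points (permutation p = 0.775, 10000 resamples). Left glands were hit in 13 of 29 and right glands in 10 of 21 resistant tumours (44.8% and 47.6%, Fisher exact p = 1, adjusted p = 1 over 728 genes, 0 or 0% passing and 20 unadjusted). For untreated tumours the shares were 10 of 46 on the left and 12 of 43 on the right (21.7% and 27.9%, p = 0.624, adjusted p = 1 over 1331 genes, 0 or 0% passing and 31 unadjusted; Fisher exact test). Permuting tumours within each mouse gave p = 1 and p = 0.789 for gland and p = 1 and p = 0.541 for side, in resistant and untreated tumours.

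**Figure D5:**
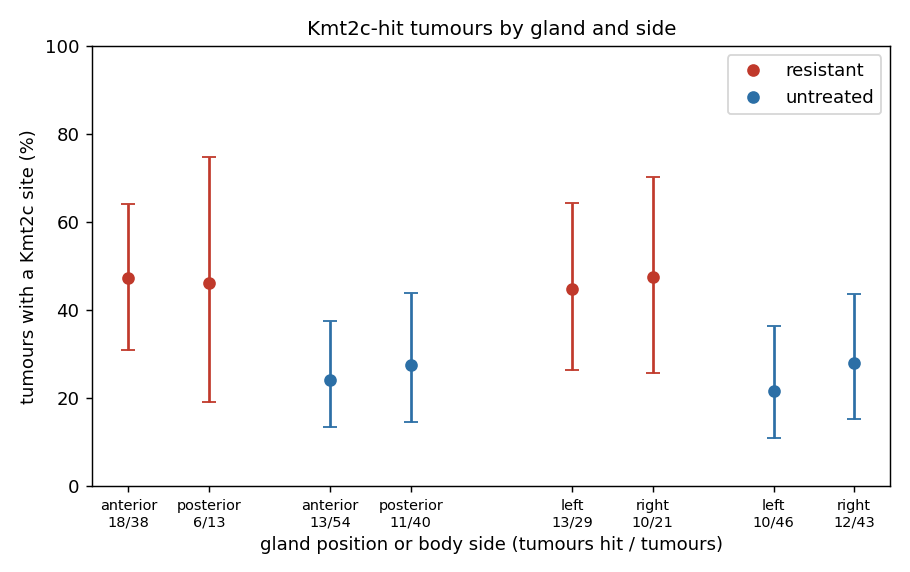
Percent of tumours hit in Kmt2c by gland position and body side (points) with 95% Clopper-Pearson intervals (bars), resistant in red and untreated in blue, and the numbers of hit and all tumours under each point. The anterior and posterior shares are 47.4% and 46.2% in resistant and 24.1% and 27.5% in untreated tumours, and each pair of intervals overlaps.

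A finer split of the anterior glands was seen only after the values were known and was not tested. Tumours whose title names a single anterior gland were hit in 8 of 8 resistant cases (100%) and 11 of 43 untreated cases (25.6%). The 8 resistant tumours came from 5 mice, 4 of them from mouse 5, so they are not 8 independent cases. Tumours whose title names glands 2 and 3 together were hit in 10 of 30 resistant cases (33.3%, 17.3 to 52.8) and 2 of 11 untreated cases (18.2%). Kept sites differed in the same direction, with medians of 937.5 and 408 per resistant tumour and 453 and 166 per untreated tumour for single and joint glands. Per 10000 kept sites Kmt2c had 32.3 sites for single and 15.2 for joint glands in resistant tumours, whereas in untreated tumours the order was turned, at 4.90 and 11.8. The part of these measures in the difference was not tested.

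Genes of the complex, of the same family and of the enhancer acetyltransferases were each hit in at most 18 tumours, against 48 for Kmt2c, and their regions, of up to 131.4 kb, were shorter than its 229 kb. Of a list of 20 genes for complex partners, other H3K4 methyltransferase complexes and enhancer acetyltransferases, 13 had a region in the authors' table, 12 were hit in at least 1 tumour and 4 in the 5 or more that the test asked for. By the Fisher exact test across 2558 genes 0 of these 4 passed, adjusted or unadjusted, with 3 higher and 1 lower in resistant tumours. Their median difference was 1.74 percentage points, beside 0.563 over all 2558 genes. Kdm6a, the demethylase subunit, was hit in 7 resistant (13.7%) and 11 untreated tumours (11.7%; Fisher exact p = 0.794, adjusted p = 1), and 13 of these 18 tumours were also hit in Kmt2c. Kmt2c was hit more often in tumours with more kept sites, so this overlap is not read as a link between the genes. Kmt2d, the paralogue, was hit in 0 tumours of either group, over a region of 41.5 kb.

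The other subunits had few hits. Paxip1, an adaptor subunit, was hit in 3 resistant and 0 untreated tumours, Ncoa6, a nuclear receptor coactivator, in 0 and 4, Rbbp5, a core subunit, in 1 and 0, and Ash2l, a core subunit, in 0 and 1. Among the related methyltransferases, Kmt2a was hit in 1 resistant and 5 untreated tumours (Fisher exact p = 0.666, adjusted p = 1), and Setd1a and Setd1b in 1 resistant and 0 untreated tumours each. Psip1, a chromatin reader that binds the KMT2A complex, was hit in 1 tumour of each group, and Wdr82, a subunit of the SETD1 complexes, in 0 and 2. The acetyltransferase genes Crebbp (4 and 6; Fisher exact p = 0.741, adjusted p = 1) and Ep300 (5 and 4; Fisher exact p = 0.279, adjusted p = 1) were hit about as rarely. No value was given for Pagr1a, Wdr5, Dpy30, Kmt2b, Men1, Hcfc1 and Cxxc1, which had no region matched by symbol.

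Likeness to Kmt2c across tumours was measured by the phi coefficient of hit and not hit over all tumours of both groups, for 376 genes hit in at least 15 tumours outside chromosome 10. The highest values belonged to Tenm2, a teneurin adhesion gene (phi 0.492, with 25 of its 33 hit tumours also hit in Kmt2c), Macrod2, an ADP-ribosyl hydrolase gene (0.445, 31 of 50), Pias1, a SUMO ligase gene (0.427, 15 of 17), Fgf13 (0.407, 14 of 16) and Kcnip4 (0.4005, 21 of 30). These tumours share their libraries and the median phi of the 376 genes was 0.194. A hit in Kmt2c had a phi of 0.474 with merely keeping more sites than the median tumour, above all but 1 of the gene values. The regions of these genes, in the order given, measured 939.6, 1996.6, 104.4, 525.4 and 1137.2 kb, against 229 kb for Kmt2c.

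Nf1, which is named in the series title and encodes a brake on RAS, had a phi of 0.359 with Kmt2c, and 15 of 18 resistant and 3 of 8 untreated tumours hit in Nf1 were also hit in Kmt2c. Among other often hit genes, for Trps1, a GATA-type repressor gene, phi was 0.224 (23 of 41 resistant and 21 of 73 untreated Trps1-hit tumours), and for Fbxw7, a ubiquitin ligase subunit gene, 0.185 (14 of 22 and 6 of 21). By phi, Nf1 ranked 13, Trps1 140 and Fbxw7 215 of the 376 genes. Of all tumours, 24 of 51 resistant and 24 of 94 untreated ones were hit in Kmt2c. Each of these phi values was below the 0.474 of Kmt2c with keeping more sites than the median tumour. The overlaps are therefore not read as links between the genes.

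The authors' deposited table gave Kmt2c 100 insertions in 42 resistant tumours (82.35%) and 48 insertions in 46 untreated tumours (48.94%), under filters not given in the sources used here. Of these, in the authors' deposited table, 51 lay on the strand of the gene and 49 on the other in resistant tumours, and 28 and 20 in untreated tumours. Its signed −log10 p score of a common integration site test was 68.9 in the resistant and 12.3 in the untreated group. The authors' deposited table thus calls more tumours hit than were hit here, at 10 reads or at 1 read (25 resistant and 31 untreated tumours). Here each position and strand was kept in 1 tumour only. With shared positions kept in every tumour, the shares at 10 reads were 50.98% and 28.7%. The source of the gap was not tested. In the authors' deposited table, too, the resistant share is the higher one.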

How the data were processed

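Integration sites were mapped in genomic DNA of 51 resistant and 94 untreated mouse tumours by splinkerette PCR from the 5' arm of the transposon, per the labels' protocols. The deposited site table gives, per the file headers, a read count per site and library, which the authors left unscaled as far as the values show, and a second, undefined count used only in an alternative. The authors' region table holds counts of insertions and tumours, the percent of tumours with an insertion and a signed −log10 p score, per the file headers. Per the submitters' processing notes the genome build was mm10; the sources used here give neither aligner nor site filters. A further 580 per-sample columns were not used.

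Groups came from the treatment labels, and mouse and gland from the titles, which name 48 mice where the labels state 53. A position with its highest count tied between tumours (12 sites of at least 10 reads) went to the first of them. Of 13391 gene regions 12384 matched a RefSeq symbol and 9755 a strand. The deposited contexts matched RefSeq promoter sequence on the listed strand at 1029 of 1029 sites, and the share of same-strand insertions per gene correlated with the authors' over 309 genes of at least 20 insertions (Pearson's r = 0.822), all within 25 percentage points. Genes are not independent replicates. Fisher exact, exact binomial and permutation tests (100000 resamples) were run over all genes hit in at least 5 tumours (of each group, where lead sites were compared), with Benjamini-Hochberg adjustment and a threshold of 0.05. The tests were checked on simulated data with large differences and independent tumours. This check does not cover differences as small as those of Kmt2c or tumours that share a mouse. Intervals at 95% cover the counting of tumours only. Reads of PCR products need not be separate molecules. The p-values treat tumours of one mouse as independent except where permuted within mice or where 1 tumour per mouse was taken.

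The gene, the lists and the tests were chosen with earlier results of these data known. The text names Kmt2c, the genes of the list hit in at least 1 tumour, and the 5 genes most like it. Galnt11, Prkag2, Kmt2d, Nf1, Trps1 and Fbxw7 were added to these after their values were seen. Python 3.11.15, NumPy 2.4.6, pandas 2.3.3, SciPy 1.17.1 and matplotlib 3.10.9 were used.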

Additional observations from a re-analysis of the deposited data

How the results depend on the processing

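The Kmt2c hit share in resistant and untreated tumours moved to 31.4% and 15.96% at 50 reads, to 29.4% and 10.6% at 100 reads, to 27.5% and 6.38% with the 100 most-read sites per tumour and to 27.5% and 12.8% with sites of at least 0.1% of library reads. The resistant density was 17.4 per 10000 kept sites without the tumours of 10 or more Kmt2c sites. The difference of mean lead position, resistant minus untreated, turned positive at 2.44 percentage points (50 reads), 2.59 (100 reads), 12.2 (100 most-read sites), 6.38 (0.1% of reads), 5.62 (shared positions kept in every tumour), 3.06 (second count column), 0.318 (without resistant tumours 26 and 35) and 8.71 (1 tumour per mouse). The left minus right difference turned to 0.657 (1 read) and 2.46 points (50 reads) in resistant tumours, and to 4.55 (1 read), 5.76 (50 reads), 3.89 (100 reads) and 1.87 points (100 most-read sites) in untreated tumours. The anterior minus posterior difference turned to 0.278 (5 reads) and 0.463 points (0.1% of reads) in untreated tumours, and to −19.4 in resistant tumours of the Tgtumor form. The cause was not tested. The share of lead sites with the gene in resistant tumours was 50%, which has no direction. Its 17 alternatives by tumour lay between −4.17 and 10 points from it, on both sides. With 1 tumour per mouse, which is not among these, the share was 66.7%. The other 152 values kept their direction and, where tested, their side of the threshold. Some of these could not change, so their number is not a measure of stability. Leaving out tumours of 1 group left the hit shares and orientation within the other group as they were. Dropping sites read in the majority of libraries removed no kept Kmt2c site. Permuting within mice kept the differences of the main setting. Over 150 values with a test, 0 had an adjusted and 0 an unadjusted p under 0.05. The alternatives without tumour 79, without tumours 26 and 35, without tumour 48 in the Mouse form and without the tumours of many sites were chosen after seeing the data. No paired analysis was possible because the labels carry no replicate numbers shared by the groups. A tumour with few kept sites could hold a Kmt2c insertion that was not detected, which limits the shares. Few kept sites did not always go with few reads: resistant tumour 34 kept 16 sites at 1008751 reads. The part of depth in this was not tested.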
